A study of Mus musculus with 11 samples.

Results

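The messages of the antibody chains were followed in 11 mouse lymphomas through 75 immunoglobulin probes, out of 39429 non-control probes on the array. A probe was taken when its gene name in the array files began with Igh, Igk or Igl, or when its description named an immunoglobulin heavy, kappa or lambda chain. The surrogate light chain gene Igll1 (1 probe) and 3 probes of recombination signal binding proteins met the wording and were left out, because neither is a heavy, kappa or lambda chain. Of the 75 probes, 46 were of the heavy chain (10 constant, 35 variable and 1 unclassified), 25 of the kappa chain (1 constant, 21 variable and 3 unclassified) and 4 of the lambda chain (2 constant and 2 variable). By type the tumours were plasma cell lymphoma (PCL, 4 tumours), mantle cell lymphoma (MCL, 3 tumours) and Burkitt lymphoma (BL, 4 tumours), and each is named by type and number, such as BL2.

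All tumours came from lymph nodes of Black 6 mice that carried the c-myc-3'RR transgene, in which c-myc is placed under the 3' regulatory region of the heavy chain locus, and had 1 intact p53 allele (p53+/-). Every tumour was labelled as mature B cell in stage, no ages were given and no untreated or normal B cells were analysed here. Each tumour was hybridised to 1 one-colour array from 0.2 micrograms of total RNA with an RNA integrity number of 8 to 10. The labels do not say that each tumour came from a separate mouse, so the p-values cover sample-to-sample spread that may be technical only, and each type lay on its own slide, so type and slide cannot be told apart.

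A B cell assembles the variable part of its heavy chain from V, D and J segments and that of its light chain from V and J segments, so a clone of B cells transcribes mainly 1 heavy and 1 light chain rearrangement. The constant part sets the isotype: IgM and IgD are made first, and class switching replaces them with IgG, IgE or IgA constant genes that lie farther downstream in the locus. The light chain is kappa or lambda, each from a locus of its own, and a lymphoma, as a clone, is often characterised by its isotype, its light chain and the V segments it uses.

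Signals below are log2 processed signals minus the 75th percentile of the array, so a value of 0 is that percentile and 1 unit is a doubling. Probes differ in how brightly they bind, so signals are compared across tumours within a probe, and the level of one probe is not set against that of another. The arrays had their 75th percentile between 1067 and 1632 intensity units, 55.5% to 62.8% of their spots well above background and 0 saturated spots. The B cell markers Ms4a1, Cd79a, Cd79b, Pax5, Cd22, Blnk and Fcrla were all well above background on all 11 arrays, with a summed log2 signal of 7.59 to 8.26. Of these 7, 5 had a higher mean in PCL than in MCL and 2 a lower one (Ms4a1 by -1.53 and Cd22 by -0.57 log2 units), and 0 were called (limma, adjusted p = 0.0665 for Ms4a1). In such bulk tissue, fewer cells of a type and less RNA per cell cannot be told apart.

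The probes are 60 bases long, and 12 of them carry most of what follows. They are given here 5′ to 3′ as on the array, with the start and end in mouse build mm9, all on the minus strand of chromosome 12 or 16 or unmapped in the files. Capitals mark the longest stretch of at least 12 bases that a probe shares with another immunoglobulin probe, and a probe in lower case alone shares no such stretch. The first set holds the constant regions whose signals did or did not separate the types: IgM at chr12:114659630-114659689, IgG2b at chr12:114544738-114544797, IgG2c at chr12:114525600-114525659, the IgA locus at chr12:114496985-114497044, lambda 1 at chr16:19061905-19061964 and lambda 2 at chr16:19198704-19198763.
IgM: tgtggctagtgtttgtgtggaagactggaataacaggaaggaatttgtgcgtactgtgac
IgG2b (1): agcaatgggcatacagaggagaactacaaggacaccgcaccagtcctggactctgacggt
IgG2c: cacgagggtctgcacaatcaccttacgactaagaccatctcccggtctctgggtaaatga
IgA locus (1): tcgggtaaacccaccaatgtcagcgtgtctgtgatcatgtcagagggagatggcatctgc
Clambda1: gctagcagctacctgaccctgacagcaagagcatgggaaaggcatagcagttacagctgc
Clambda2: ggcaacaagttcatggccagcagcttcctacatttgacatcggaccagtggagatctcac

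The second set holds heavy variable probes that were high in 1 tumour: VH12-JH1 at chr12:115604859-115604918 in PCL3, L2MZB-18.3 at chr12:114816899-114816958 in PCL4, J558.B18 at chr12:117072253-117072312 and J558.B20 at chr12:117158613-117158672 in BL3, and the unmapped probes BApecB1a-P19 in PCL1 and 311 in PCL2. The names are those of clones or germline segments in the array descriptions.
BApecB1a-P19: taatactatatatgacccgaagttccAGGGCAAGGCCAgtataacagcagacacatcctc
311: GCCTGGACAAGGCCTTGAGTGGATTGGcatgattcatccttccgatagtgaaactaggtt
VH12-JH1: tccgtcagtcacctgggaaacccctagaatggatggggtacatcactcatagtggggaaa
L2MZB-18.3: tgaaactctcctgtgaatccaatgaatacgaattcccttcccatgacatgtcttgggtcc
J558.B18: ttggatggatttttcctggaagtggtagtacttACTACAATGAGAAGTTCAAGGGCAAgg
J558.B20: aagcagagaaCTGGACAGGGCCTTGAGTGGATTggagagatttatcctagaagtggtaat

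The constant region probes shared no run longer than 11 bases with any other immunoglobulin probe. The shared runs in the second set were of 12 bases between BApecB1a-P19 and J558.50, 27 bases between 311 and J558.37, 25 bases between J558.B18 and J558.15 and 23 bases between J558.B20 and J558.13. Whether a probe also bound transcripts of other segments was not tested.

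IgM messages were high in every tumour and did not separate the types. The IgM probe, for the mu constant region of the first isotype, read 6.51, 5.50, 6.13 and 4.93 in PCL1 to PCL4, 6.36, 5.13 and 5.64 in MCL1 to MCL3, and 5.76, 6.13, 5.87 and 5.41 in BL1 to BL4. The 3 ranges overlapped, and PCL exceeded MCL by 0.06 ± 0.40 (SE, limma, adjusted p = 0.947) and differed from BL by -0.03 ± 0.37 (adjusted p = 0.983). The IgD probe, 5353 bases from the IgM probe, read between -0.04 and 1.41 in the PCL tumours, between 0.35 and 3.16 in the MCL tumours and between 0.33 and 2.84 in the BL tumours. MCL2, BL2 and BL3 were the highest for IgD and PCL1 the lowest, and the PCL minus MCL difference was -1.18 ± 0.75 (adjusted p = 0.371).

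The IgG2 constant regions were higher in all 4 PCL tumours than in all 3 MCL tumours. Among the BL tumours 1, BL2, lay within the PCL range or, for IgG2c, just below it. IgG2b is a switched isotype, and the first of its probes read 3.92, 4.38, 5.33 and 5.92 in PCL1 to PCL4 against -0.72, -1.46 and -0.87 in MCL1 to MCL3. In the BL tumours it read -3.91, 4.34, 0.15 and -0.64. BL2 thus lay inside the PCL range, and BL1 was the lowest of the 11 tumours. PCL exceeded MCL by 5.90 ± 1.47 (SE, limma, adjusted p = 0.0463), while the difference from BL was 4.90 ± 1.36 (adjusted p = 0.113).

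IgG2c, the gene that mice of the Black 6 strain carry in place of IgG2a, followed the same tumours. Its probe read 3.00, 3.04, 3.84 and 4.59 in PCL1 to PCL4, -1.36, -1.61 and -0.72 in MCL1 to MCL3, and -3.11, 2.79, 0.61 and -0.49 in BL1 to BL4. The PCL values lay above all 7 others, with BL2 the nearest, and PCL exceeded MCL by 4.85 ± 1.09 (SE, limma, adjusted p = 0.0338) and BL by 3.67 ± 1.01 (adjusted p = 0.111). The probe that the files describe as IgG2a starts only 104 bases from the IgG2c probe, so both read 1 place in the locus and are not independent. It read 4.42 to 6.31 in the PCL tumours, -0.60 to 0.39 in the MCL tumours, and -2.75, 4.70, 1.24 and 0.37 in BL1 to BL4 (PCL minus MCL 5.38 ± 1.34, adjusted p = 0.0462). The BL2 value was within the PCL range for this probe too.

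A further IgG2b probe lies 2213 bases downstream of the first and was dim. It read -4.08, -1.43, -0.67 and 0.37 in PCL1 to PCL4 and was too dim to stand well above background in the MCL tumours. Of the BL tumours only BL2, at -2.17, was well above background. From its means of -1.45 ± 1.90 (SD, n = 4) and -6.65 ± 1.01 (SD, n = 3) the probe was at least 21.5-fold brighter in PCL than in MCL, but it did not pass the test (limma, adjusted p = 0.062). It did pass without PCL1 (6.08, limma, adjusted p = 0.0266) or BL2 (5.20, adjusted p = 0.0307). The test needed 3 arrays well above background, which this probe reached only through PCL tumours, and that filter was not redone. These passes are thus a description and no support for a difference between the types. The fold bound divides the mean signal of the brighter group by the detection limit of the other arrays and holds only for this background subtraction. With normexp correction and in the authors' values the log2 difference was 3.03 and 3.20, smaller than the bound. PCL1 was the lowest PCL tumour for all 4 IgG2 probes.

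Probes at the IgA end of the locus were also higher in PCL than in MCL, and here the BL tumours divided differently. The files give these 3 probes as predicted genes. They are assigned to IgA because they lie next to the IgE probe on the side where the reference annotation has Igha. IgA locus (1) read 2.72, 1.52, 1.31 and 1.74 in PCL1 to PCL4, -4.50, -1.95 and -3.66 in MCL1 to MCL3, and -3.13, -2.36, 1.85 and 1.44 in BL1 to BL4. BL3 and BL4 lay in the PCL range and BL1 and BL2 in the MCL range, so the tumour with the IgG2 signal in the BL group, BL2, was not among those with the IgA signal. PCL exceeded MCL by 5.19 ± 1.19 (SE, limma, adjusted p = 0.0358), and the difference from BL was 2.38 ± 1.10 (adjusted p = 0.304). IgA locus (2), 105 bases away, gave 5.11 ± 1.24 between PCL and MCL (adjusted p = 0.0428) with the same 6 tumours above 0 or close to it, from -0.02 in PCL3 to 1.66 in PCL1. IgA locus (3), another 1258 bases away, stood well above background in none of the MCL tumours. It was at least 7.46-fold brighter in PCL, at -3.04 ± 0.81 (SD, n = 4) against -6.77 ± 1.04 (SD, n = 3), without passing the test (limma, adjusted p = 0.0574). It passed without BL1 (adjusted p = 0.0392), but it too entered the test only through PCL tumours. That pass is a description and no support for a difference between the types. With normexp correction and in the authors' values the log2 difference of this probe was 1.88 and 1.70, again smaller than the bound.

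The IgE probe stayed between -6.24 and -5.21 in all tumours and was well above background on 3 arrays only, 1 of PCL and 2 of MCL. Its PCL minus MCL difference was 0.07 ± 0.25 (limma, adjusted p = 0.887). The constant genes of the heavy chain therefore gave 5 probes called higher in PCL than in MCL, from 3 places of the locus (IgG2b, IgG2c with IgG2a, and IgA). None of the heavy constant probes was assigned to IgG1 or IgG3, so those isotypes were not covered here.

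These 5 calls rest on few tumours. Leaving out any of PCL2, PCL3, PCL4, MCL1, MCL2 or MCL3 ended all 5 calls, with adjusted p-values of up to 0.099 for IgG2c, 0.0981 for IgA locus (1), 0.128 for IgG2a, 0.125 for IgG2b (1) and 0.116 for IgA locus (2). The calls of IgG2a and IgG2b (1) were also lost without BL3 or BL4, and that of IgA locus (2) without PCL1 or BL2. The differences themselves stayed between 4.52 and 6.22 in all of these fits. The normexp background correction also ended the 5 calls, with differences of 3.97 to 5.72. All 5 were lost too when dim probes were not filtered out, and when the array position was fitted as a block.

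Kappa constant messages were high in all tumours. The Ckappa probe read 6.92, 5.91, 5.33 and 5.65 in PCL1 to PCL4, 6.64, 6.68 and 6.47 in MCL1 to MCL3, and 6.12, 6.29, 6.84 and 6.70 in BL1 to BL4. PCL2 to PCL4 were the 3 lowest, and the difference between PCL and MCL was -0.64 ± 0.35 (SE, limma, adjusted p = 0.296). Without PCL1 it was -0.96 and passed the threshold (adjusted p = 0.0361). The kappa locus lies on chromosome 6, and over 563 probes of that chromosome the median deviation from the probe means was -0.42, -0.49 and -0.51 in PCL2 to PCL4, 0.05 in PCL1 and 0.03 to 0.58 in the other tumours. The part of this shift in the Ckappa values was not tested.

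Lambda constant messages were high as well, with 1 exception. The Clambda1 probe read 5.83 to 7.69 in the PCL tumours, 4.98 to 5.97 in the MCL tumours and 7.64, 5.49, 5.58 and 6.08 in BL1 to BL4 (PCL minus MCL 1.36 ± 0.58, limma, adjusted p = 0.193). PCL4 and BL1 were the 2 highest. The Clambda2 probe read 5.86, 6.90, 8.10 and 7.26 in PCL1 to PCL4, 6.53, 6.70 and 5.66 in MCL1 to MCL3, and 1.61, 7.67, 6.52 and 5.68 in BL1 to BL4. BL1 thus combined the lowest Clambda2 value, where the next lowest was 5.66 in MCL3, with a Clambda1 value close to the highest. Neither probe was called among the 3 types (adjusted p = 0.307 for Clambda1 and 0.571 for Clambda2, F test).

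Both lambda variable probes varied widely, with ranges over the 11 tumours of 9.07 (Vlambda1) and 8.39 (Vlambdax), against 2.71 for Clambda1 and, through BL1, 6.48 for Clambda2. They are described because their values stood out once seen, and not by the rule for named probes. The Vlambda1 probe read -1.13, 4.51, 7.20 and 6.88 in PCL1 to PCL4, -1.38, -1.48 and -1.87 in MCL1 to MCL3, and 6.74, 5.14, 0.85 and 1.70 in BL1 to BL4. High values were those of PCL2 to PCL4, BL1 and BL2, and PCL1 lay with the MCL tumours. The Vlambdax probe, for a distinct lambda segment, read -3.76, 3.32, 4.63 and 2.41 in PCL1 to PCL4 and between -3.61 and -2.32 in the 7 MCL and BL tumours. PCL2 to PCL4 stood above all others and PCL1 was the lowest of all.

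With PCL1 in the group, neither lambda variable probe passed the test: for Vlambdax PCL exceeded MCL by 4.49 (limma, adjusted p = 0.122) and BL by 4.71 (adjusted p = 0.14). This turned on PCL1, since without it the differences of Vlambdax were 6.30 from MCL (adjusted p = 0.000469) and 6.51 from BL (adjusted p = 0.000421), and that of Vlambda1 from MCL was 7.77 (adjusted p = 0.0137). These values leave out the tumour already seen to lie apart, so they describe PCL2 to PCL4 and are no support for a difference between the types. Without PCL2, PCL3 or PCL4 the difference of Vlambdax from MCL was 3.93, 3.50 or 4.24 (adjusted p = 0.263, 0.251 and 0.252). PCL1 also differed from PCL2 to PCL4 in its macrophage marker genes, whose summed log2 signal was 1.18 in PCL1 and 3.35 to 4.66 in the others, against 0.72 to 2.14 in MCL and 1.32 to 2.96 in BL. The summed signal of the 10 T cell markers was 4.50 to 5.27 in PCL, 4.53 to 5.47 in MCL and 4.81 to 5.28 in BL. Cd2, at 3.08 to 5.03, gave the largest part of this sum in every tumour. Of the 10, only Cd4 was called. Its PCL minus MCL difference was -0.78 (limma, adjusted p = 0.0423) and its MCL minus BL difference 0.96 (adjusted p = 0.0182). All 12 macrophage genes were well above background on at least 1 array. The 11 tested ones all had a higher mean in PCL than in MCL, with a median difference of 2.60. Only Msr1 was called (2.07, limma, adjusted p = 0.0347), where 1.83% of all probes were called higher in PCL. Msr1 entered the test only through PCL tumours, so its call is a description. The part of the macrophage genes in the immunoglobulin values was not tested.

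Across all immunoglobulin probes, the spread between tumours was wide. The 58 variable probes had a median range over the 11 tumours of 7.76 log2 units and the 13 constant probes one of 6.48, against 1.57 over all 25296 tested probes, which stood well above background on 3 arrays or more. Among probes well above background on all arrays the medians were 7.93 for 15 variable probes, 6.76 for 10 constant probes and 1.39 for all 19405. IgE, IgM and Ckappa, with ranges of 1.02, 1.58 and 1.59, were the narrowest of the constant probes.

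Of the 75 probes 62 met that filter and entered the tests, 25 were so on all 11 arrays and 4 on none. A probe that passed this filter only through a group where it was high had to differ, so the counts that follow are a description. Between PCL and MCL, 11 of the 62 were called, all higher in PCL, where 5.68% of all 25296 probes were called and 1.83% were called higher in PCL. Among probes measured on all 11 arrays, 6 of 25 were called, again higher in PCL, against 6.3% of all such probes and 1.93% higher in PCL (IgG2b (1), IgG2c, IgG2a, both bright IgA locus probes and J558.B10). The median difference over the 62 probes was 2.83, against -0.01 over all tested probes.

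Between PCL and BL 1 of 62 immunoglobulin probes was called, higher in PCL, where 0.597% of all probes were called and 0.403% were called higher in PCL, and the median difference was 1.79 against 0.09 for all. Between MCL and BL the count was 0 of 62 (limma, 3 at an unadjusted p under 0.05), where 4.95% of all probes were called and 4.8% were called higher in MCL, with a median of -0.79 against 0.03. The F test over the 3 types called 4 of 62 (DBA/1 kappa, BALB/c-51, J558.B10 and IgG2c), near the 6.98% of all probes. Of the 25 probes measured on all arrays it called 5, where 7.62% of all such probes were called. In that set the counts were 0 of 25 between PCL and BL (0.727% of all, 0.371% higher in PCL) and 0 of 25 between MCL and BL (5.6% of all, 5.34% higher in MCL). BL tumours spread widely for single probes among the 62, up to 5.09 units for J558.13 (SD, n = 4). MCL tumours did so too, with 5.92 units for J558.50 (SD, n = 3).

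The 6 called variable probes were 4 of the heavy chain and 2 of the kappa chain. J558.B10, of the large J558 family of heavy V segments, read -0.73, 2.95, 3.06 and -0.01 in PCL1 to PCL4, -4.63, -5.04 and -5.35 in MCL1 to MCL3, and -2.25, -5.56, -1.24 and -1.40 in BL1 to BL4. All 4 PCL tumours lay above the other 7, and PCL exceeded MCL by 6.33 ± 1.19 (SE, limma, adjusted p = 0.0193). This call was lost without PCL2, PCL3, MCL2 or MCL3, with an adjusted p of up to 0.0628, and kept without each of the other 7. J558.B19, which shares bases with J558.B10, read -3.34, 0.67, 0.93 and -0.90 in PCL1 to PCL4 and -4.14, -6.61 and -7.30 in MCL1 to MCL3 (5.36 ± 1.31, adjusted p = 0.0433). PCL1 was the lowest PCL tumour for J558.B19 too, and BL2, at -7.58, was far below BL1, BL3 and BL4, which read -3.66 to -3.35.

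The other called heavy variable probes were dim. The probe at chr12:116305943-116306002 read -5.17 to -2.73 in the PCL tumours and stood well above background in none of the MCL tumours. It was at least 3.79-fold brighter in PCL, at -4.04 ± 1.01 (SD, n = 4) against -7.14 ± 0.72 (SD, n = 3), with an adjusted p of 0.0358 (limma). Well above background in 4 PCL and 2 BL tumours, it passed the filter only through PCL tumours. Its call is thus a description and no support for a difference between the types. A probe named Igh-VJ558 among the variable segments read -3.90 to -0.73 in the PCL tumours and was at least 9.67-fold brighter than in MCL, at -2.69 ± 1.41 (SD, n = 4) against -7.39 ± 0.70 (SD, n = 3), with an adjusted p of 0.0327. Without any of PCL2 to PCL4 or MCL1 to MCL3 both calls were lost, with adjusted p-values of up to 0.111 and 0.0987. With normexp correction their log2 differences were 1.52 and 2.39, and in the authors' values 1.12 and 2.26, all smaller than the bounds. Both calls were lost with normexp correction, and in the authors' values that of the probe at chr12:116305943-116306002 was lost too. J558.B19 lost its call in 9 of the 11 such fits, without any tumour other than PCL1 and BL2, at up to 0.126.

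Of the kappa variable probes, the one described from the DBA/1 strain was called against both other types. It read -5.86, -3.76, -4.09 and -3.63 in PCL1 to PCL4, where 3 tumours were well above background, and at most -6.27 in the 7 other tumours, none of which was. It was at least 3.09-fold brighter in PCL than in MCL (limma, log2 difference 3.55 ± 0.58, SE, adjusted p = 0.0118, means -4.33 and -7.89) and at least 3.45-fold brighter than in BL (3.12 ± 0.54, adjusted p = 0.0437, mean -7.45). The call against MCL was kept in all 11 fits with 1 tumour left out. The call against BL was kept only without PCL1 or BL4, with adjusted p-values of up to 0.141 in the other 9. This probe passed the filter only through PCL tumours, and the filter was not redone in these fits. The kept calls are thus a description and no support for a difference between the types. With normexp correction the differences were 1.58 and 0.96, and neither was called. In the authors' values they were 1.42 and 1.11, and only the first was called.

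BALB/c-51, another kappa variable probe, read -2.99, 1.48, 0.14 and 2.46 in PCL1 to PCL4, -4.82, -4.44 and -4.40 in MCL1 to MCL3, and -6.28 to -3.25 in the BL tumours. All 4 PCL tumours were above the other 7, and PCL exceeded MCL by 4.82 ± 1.14 (SE, limma, adjusted p = 0.039) and BL by 5.33 ± 1.05 (adjusted p = 0.0563). Without any of PCL2 to PCL4, MCL1 to MCL3, BL2 or BL4 the call against MCL was lost (adjusted p up to 0.107). The probes V21-7 and V21-4 neighbour it on chromosome 6 and were also highest in PCL4 and PCL2, at 3.13 and 1.87 for V21-7 and at 2.10 and 1.16 for V21-4. BL3 followed them for these probes, at 0.17 and 0.59, but not for BALB/c-51.

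Single tumours stood out by single variable probes. Of the 58 variable probes, 11 had 1 tumour that was well above background and exceeded the second highest by at least 2 log2 units, which is 19.0% of them, where 3.21% of all 39383 probes with a value on every array did. The count was 2 for PCL1, PCL2 and PCL4, 1 for PCL3 and BL4, 3 for BL3, and 0 for MCL1, MCL2, MCL3, BL1 and BL2. MCL1 and BL2 were nonetheless each the highest tumour for 8 variable probes, by smaller gaps. Leaving out either of these 2 tumours raised the total from 11 to 14. Of the 11, 10 were heavy chain probes. A tumour is 1 sample here, so no test of a single tumour was possible.

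The widest gap was that of VH12-JH1, a heavy chain of the V12 family, which read 2.37 in PCL3 and between -8.72 and -6.03 in the 10 other tumours, none of which was well above background. BApecB1a-P19, named after a clone, read 1.03 in PCL1 and between -8.21 and -6.46 elsewhere, also well above background in 1 tumour alone. In BL3, J558.B18 read 0.33, J558.13 read 2.58 and J558.B20 read 2.42, with gaps of 5.38, 4.85 and 4.04 to the second highest tumour. These 3 probes lie within the J558 part of the locus, and J558.B20 shares a run with J558.13.

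In PCL2 the probe 311 read 1.54, with 5 other tumours well above background at a gap of 4.45, and J558.15 read 0.68 at a gap of 2.68. In PCL4, L2MZB-18.3 read -1.80 and L2pecB-1a read -2.97, with gaps of 3.72 and 2.28. PCL1 had also the 1 kappa probe of this kind, CBAimmB-21, at 3.19 with BL2 second at 1.16. BL4 was marked by the X24 family probe at -4.52, where no other tumour was well above background. These probes were taken because 1 tumour was far above the rest, so none of them could mark more than 1 tumour. That the PCL tumours differ in these probes was therefore set by the choice. Heavy variable probes at least 2 log2 units above their own mean in both tumours of a PCL pair were also counted. Their number went from 0 for PCL1 with PCL4, which had 5 and 6 such probes, to 5 for PCL2 with PCL3, which had 16 and 10. The shared counts depend on these numbers, and whether they differ from what the numbers alone would give was not tested.

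The number of heavy variable probes well above background differed between tumours. Of 35, it was 26, 24, 22 and 23 in PCL1 to PCL4, 16, 6 and 7 in MCL1 to MCL3, and 18, 15, 23 and 17 in BL1 to BL4. In MCL2 and MCL3 no heavy variable probe exceeded -4.49 and -3.31, and in BL1 none exceeded -2.25. The array covers only some of the heavy V segments, and segments without a probe were not measured here.

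Position along the locus went with detection. The 9 heavy variable probes nearest to the constant genes, which start between 114816899 and 115604859 on chromosome 12, were well above background on at most 2 of the 11 arrays each. Of the 23 mapped probes farther away, which start between 115707350 and 117158613, 22 were so on 3 arrays or more, with a median of 9 arrays. The exception was J558.B18, on 2 arrays. This division was drawn after the values were seen. The 9 nearer probes shared runs of at most 14 bases with other immunoglobulin probes, and the farther ones runs of up to 39 bases. Position and probe sequence thus cannot be told apart here.

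MCL1 and BL2, tumours of different types, had nearly the same heavy variable profile. The 10 probes that lay at least 2 log2 units above their own mean in MCL1 were the same 10 that did so in BL2, out of 35. Of the 9 that are mapped, all start between 115707350 and 116383750, and they include J558.50 (2.58 in MCL1 and 3.09 in BL2), J558.4 (3.30 and 3.04) and L2MZB-13.3 (1.60 and 2.30). The unmapped one is J558.2 (0.85 and 0.25). In MCL2 these 4 probes read -7.63, -5.91, -4.49 and -7.00. For comparison, PCL2 and BL3 also shared 10 such probes, of 16 in PCL2 and 13 in BL3. Of the 45 pairs among the 10 probes, 13 share a run of at least 20 bases, so the probes are not independent readings.

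Over the 35 heavy variable probes, each centred on its mean, the correlation of MCL1 with BL2 was 0.925, the highest of the 55 pairs of tumours, followed by 0.814 for MCL2 with MCL3. The same pair ranked first with quantile normalization (0.923), normexp correction (0.964) and the authors' values (0.961). MCL1 correlated with MCL2 at -0.563 over the same probes. MCL2 and MCL3 had only 6 and 7 of the 35 probes well above background. Neither had a probe at least 2 log2 units above its mean, so their correlation is not one of shared high probes. Over all 25296 tested probes the correlation of MCL1 with BL2 was -0.23, rank 37 of the 55 pairs. Points in such a correlation share family sequence and are given as a description.

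Kappa variable probes formed neighbouring groups that were high together. The probes AiDWTimmB-38, BL6immB-20, BALB/c-54, AIDWTmB-11, MRL1-56 and BALB/c-26, which start between 68757412 and 69494355 on chromosome 6, were each at least 2 units above their mean in PCL1, MCL1 and BL2. AIDWTmB-11 read 5.38, 4.64 and 4.36 in these 3 tumours and at most 2.47 in the others, and MRL1-56 read 4.72, 2.91 and 3.40 against at most 1.15. The 2 probes MRL1-56 and BALB/c-26 share a run of 53 bases, so they can read the same transcripts. The correlation of MCL1 with BL2 over the 21 kappa variable probes was 0.557, the tenth highest of the 55 pairs.

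Igkv5-39 set another pair apart, with 0.78 in PCL1 and 0.90 in BL4 and at most -1.98 in the others. Among variable probes of 1 chain, the 25 of 806 pairs that share a run of at least 20 bases had a median correlation over the 11 tumours of 0.861, and the other 781 had one of 0.203. Probes alike in sequence thus moved together more often, and a high value of 1 J558 or kappa probe does not by itself name the segment used.

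Genes that act with the immunoglobulin chains were compared over 26 partner genes, all tested. Between PCL and MCL 1 was called higher in PCL and 1 lower, where 5.68% of all probes were called, and in the 2 comparisons with BL the count was 0 (limma). A count of 2 of 26 is near that share. Rag1, a subunit of the recombinase that joins V, D and J segments, read -2.02, 2.55, 3.36 and 3.51 in PCL1 to PCL4 and stood well above background in none of the MCL tumours, at -7.94 ± 0.08 (SD, n = 3). It was at least 225-fold brighter in PCL, at 1.85 ± 2.61 (SD, n = 4), with an adjusted p of 0.0123 (limma). Fcmr, the Fc receptor for IgM, read 4.42, 3.78, 3.71 and 2.40 in PCL1 to PCL4 and 6.18 to 6.87 in MCL, a difference of -3.06 (adjusted p = 0.0218). Of the PCL tumours, PCL1 had the lowest Rag1 and the highest Fcmr value.

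Jchain, which links IgM and IgA into polymers, read 0.47, 3.46, 0.09 and 0.67 in PCL1 to PCL4, 0.03, -3.38 and -3.49 in MCL1 to MCL3, and -3.54, -5.85, -1.37 and -2.04 in BL1 to BL4. MCL1 lay just below the PCL range, and the differences of 3.45 from MCL (limma, adjusted p = 0.133) and 4.38 from BL (adjusted p = 0.105) did not pass. Mzb1, a chaperone of antibody assembly, exceeded MCL by 0.88 in PCL (adjusted p = 0.0903). Cd79a and Cd79b, which anchor and signal for the surface receptor, read 4.15 to 5.34 and 5.85 to 7.37 over all tumours, with PCL minus MCL differences of 0.04 and 0.55 (adjusted p = 0.932 and 0.334).

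The surrogate light chain genes Igll1 and Vpreb1, which serve precursor B cells before a light chain exists, were highest in BL3, at 0.36 and 5.41. Igll1 was at most -2.16 and Vpreb1 at most 1.13 in the other tumours, where BL4 was second for both. Neither passed a test between the types. Igll1 stood well above background in none of the PCL tumours and was at least 5.43-fold brighter in BL, at -3.16 ± 3.26 (SD, n = 4) against -7.08 ± 0.51 (SD, n = 4), with an adjusted p of 0.235 (limma). For Vpreb1 PCL minus BL was -3.43 (adjusted p = 0.401). The summed signal of the 8 plasma cell markers (Sdc1, Jchain, Prdm1, Xbp1, Mzb1, Tnfrsf17, Irf4 and Slamf7) was 5.10 to 6.05 in PCL, 4.90 to 5.42 in MCL and 4.99 to 5.32 in BL, with PCL2 to PCL4 above all other tumours and PCL1 among them. Mzb1 made up 47.8% to 77.0% of this sum, and Sdc1 and Prdm1 at most 1.21% and 1.81%. Of the 8 genes 6 had a higher mean in PCL than in MCL, while Xbp1 and Irf4 differed by -0.13 and -0.02, and 0 were called. The part of these markers in the immunoglobulin differences was not tested.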

How the data were processed

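Probes, their gene names, descriptions, sequences and mm9 coordinates come from the deposited scanner files, which per the file headers were made with Feature Extraction 10.7.3.1 (Agilent). The processed signals in them are spot intensity values on a linear scale after the authors' background subtraction within each array, without normalization between arrays. The authors also deposited a value table, here taken as log2 from its values; it has the ranks of the mean spot signal (Spearman correlation of at least 0.999), medians of 7.22 to 7.26, no stated centring, and served as an alternative.

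Flagged outlier spots were left out, spots of a probe averaged, and the log2 signal minus the array's 75th percentile used. Of 39429 probes, 46 had no spot left on some array (0 immunoglobulin probes). Tests used limma 3.58.1 (R 4.3.3) for probes that stood well above background on 3 arrays or more, on all 11 arrays with a mean per type (8 residual degrees of freedom), with calls at 0.05 after Benjamini-Hochberg adjustment over 25296 probes. The code was tested on simulated data.

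Named with values were all constant probes, all called members, up to 3 variable probes per tumour with a gap of at least 2 log2 units, and called or preset partner genes; others named were chosen after their values were seen. Some items under this rule are not reported here. The members and lists were chosen with earlier results of these data known. Marker genes were summed on the linear scale before taking log2. RefSeq (GRCm38.p6) was used for names and neighbouring genes. Chain and region come from the description, or else from the position. Alternatives were quantile normalization, normexp correction with an offset of 50, the value table, other filters, outlier spots kept, array weights, the array position as a block, and leaving out each tumour. The number of arrays limits the precision, with a median standard error of 0.317 log2 units between PCL and MCL. Numbers of replicates are array positions. Deviations of tumours with the same number correlated between -0.0445 and 0.185, and those of tumours with different numbers between -0.241 and 0.167. These ranges overlap, so they cannot decide whether the numbers pair the tumours. The main fits leave the numbers out.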

Additional observations from a re-analysis of the deposited data

Results flagged for a closer look

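In the named immunoglobulin probes, 60 groups of 4 tumours (PCL or BL, per probe) were examined for a tumour far from the others, and 9 held one; chance gives about 1 in 20 such groups, and several of these probes were named because 1 tumour was high. PCL1 stood apart for BApecB1a-P19 (1.03, other PCL tumours -7.46 to -6.90) and for CBAimmB-21 (3.19, others -4.50 to -3.20). PCL2 did so for 311 (1.54, others -5.62 to -4.66), PCL3 for VH12-JH1 (2.37, others -8.09 to -6.34) and PCL4 for L2MZB-18.3 (-1.80, others -6.20 to -5.52). BL3 stood apart for J558.B18 (0.33, other BL tumours -8.45 to -7.90) and J558.B20 (2.42, others -4.91 to -4.35), and BL4 for the X24 family probe (-4.52, others -8.16 to -7.63). The 1 low value was that of BL2 for J558.B19 (-7.58, others -3.66 to -3.35).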

How the results depend on the processing

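No difference of a named immunoglobulin probe changed its sign where it was called, but the number of calls depended on the processing, and the cause was not tested. For the F test, PCL against MCL, PCL against BL and MCL against BL, the immunoglobulin probes called were 4, 11, 1 and 0. With normexp correction they were 0, 1, 0 and 0 (all probes 103, 184, 14 and 57), and with array quality weights 19, 19, 12 and 0 (all probes 5793, 5463, 2823 in the first 3). With no filter on dim probes 3 members were called between PCL and MCL, Igkv4-53 (2) among them as lower in PCL, and 0 between PCL and BL (all probes 950 in the F test, 714 and 74). Among probes well above background on all arrays 6 and 0 were called for PCL against MCL and against BL. The authors' value table gave 0 for PCL against BL and 654 probes in all for MCL against BL, and quantile normalization 682 there. With the array position as a replicate block, the immunoglobulin calls were 1, 1, 1 and 0 in the same order (all probes 322, 410, 69 and 274). Leaving out each tumour in turn, immunoglobulin calls ranged from 1 to 11 in the F test, 1 to 15 for PCL against MCL, 0 to 6 for PCL against BL and 0 to 0 for MCL against BL; over all probes they ranged from 591 to 3097, 312 to 2837, 6 to 1354 and 570 to 1285. The most immunoglobulin calls, 15 between PCL and MCL, came without PCL1. Only 1, DBA/1 kappa, was left without PCL2, PCL3, MCL2 or MCL3, as with the block. That probe passed the filter only through PCL tumours, and the filter was not redone in these fits. With normexp correction the 1 was J558.B10. Variable probes with 1 tumour highest by 2 log2 units numbered 11; this was 7 with normexp correction, 19 and 7 at gaps of 1 and 3 units, and 10 to 17 on leaving out a tumour, the most without PCL2. Values of dim probes depend on the background treatment, and 13 of the 75 probes were too dim to test.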
